A study of Arabidopsis thaliana with 6 samples.

Results

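In 3 replicate arrays of agp6 agp11 pollen tubes and 3 of wild type pollen tubes, 113 probe sets had a much lower signal on replicate 3 than on the other arrays of the same genotype, and this in both genotypes. They were chosen by that pattern. A probe set was taken when its mean log2 signal over the 6 arrays exceeded 6 (a signal of 64) and when its replicate 3 lay more than 1 on the log2 scale, a factor of 2, below replicate 1 and also below replicate 2 within agp6 agp11 and within wild type. The 113 were 0.497% of the 22746 probe sets in the deposited table and 2.56% of the 4421 that passed the level of 6. A gene name could be given to 63 of them, and 50 are known here by their probe set alone. The number depends on the scaling of the arrays, and 40 of the 113 were left after quantile normalization. Among named members grouped by function, the 9 cell wall and glycan genes had the largest median gap of replicate 3 below the others. The groups were drawn up with the members in view and the rule used these gaps, so this is a description only.

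The agp6 agp11 plants were a homozygous double null line made by crossing a pair of Ds transposon insertion lines, so the mutant is represented by 1 line, and the labels give the ecotype Nossen for these and for the wild type plants. AGP6 and AGP11 encode arabinogalactan proteins, heavily glycosylated proteins of the cell surface that pollen makes in large amounts. In both genotypes pollen was shaken from open flowers, many flowers were combined for a preparation, the grains were left in liquid medium with sucrose and calcium for 8 h in darkness, and the tubes were caught on a mesh before RNA was taken. Each array carries 1 such biological replicate, hybridized to the Affymetrix ATH1 array, and the labels do not say whether arrays with the same replicate number shared a day.

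A pollen tube is a single cell that extends at its tip and carries the sperm cells to the ovule. Vesicles bring methylated pectin to the tip, pectin methylesterases and pectate lyases alter it along the tube, and the older wall is reinforced with callose, cellulose and xyloglucan. Actin filaments, myosins and kinesins move vesicles and organelles, and protein kinases and calcium steer the direction of growth.

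The arrays can be summarised briefly. AGP6 had signals of 31.1, 29.1 and 15.1 on the agp6 agp11 arrays, against 13313, 13677 and 9597 on the wild type arrays, and AGP11 had at most 40.4 in agp6 agp11 and at least 5604 in wild type, so the arrays matched their labels. Correlations of log2 signals between arrays of a genotype ran from 0.944 to 0.979, and the lowest within each genotype was between replicates 2 and 3. The median signal was between 23.3 and 24.5 on every array, but the mean signal was lowest on replicate 3 in both genotypes, at 140.5 in agp6 agp11 and 122.7 in wild type, against 149.6 to 158.8 on the other agp6 agp11 arrays and 144.7 to 150.3 on the other wild type arrays. When limma estimated how closely each array followed its group, replicate 3 received the smallest weight in each genotype, 0.412 in agp6 agp11 and 0.501 in wild type, where the others received 0.761 to 4.35. Replicate 3 therefore stood apart across the whole array, and the genotype comparison of the members is given with and without it.

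The median log2 signal of the 113 members was 9.20, 9.19 and 7.83 on replicates 1, 2 and 3 of agp6 agp11, against 8.81, 9.21 and 7.40 in wild type. Replicate 3 was lower, as the rule requires, and replicates 1 and 2 were closer to one another in agp6 agp11 than in wild type. Together the members held 2.93, 3.38 and 1.45% of all signal on the agp6 agp11 arrays, and 2.83, 3.49 and 1.11% on the wild type arrays. The gap, which is the mean log2 signal of replicates 1 and 2 minus that of replicate 3, had a median of 1.26 in agp6 agp11 (1.03 to 2.19) and 1.63 in wild type (1.06 to 2.54). Over all 4421 probe sets above the level the medians were 0.16 and 0.15. Averaged over the genotypes, the gap of single members ran from 1.08 to 2.05, which is 2.12-fold to 4.15-fold. These values were used to choose the members and are not tested. RNA from whole preparations was measured, so fewer cells of a kind and less RNA of a gene in each cell cannot be told apart.

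**Figure D1:**
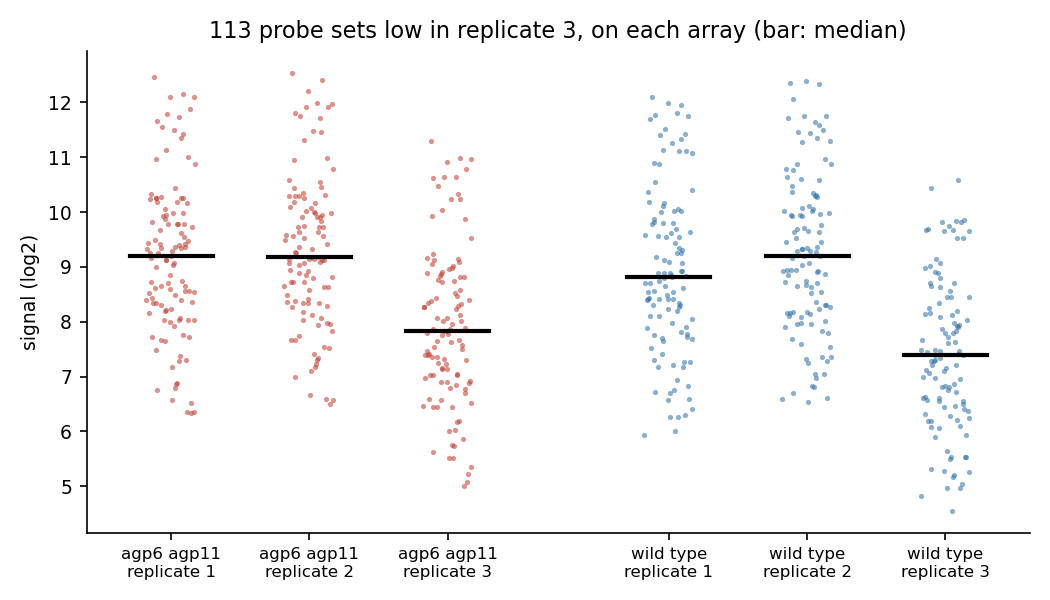
Log2 signal of the 113 probe sets (y axis) on each of the 3 agp6 agp11 and 3 wild type arrays (x axis). Each point is a probe set and each bar the median of an array; the medians on replicate 3 were 7.83 in agp6 agp11 and 7.40 in wild type, below the 8.81 to 9.21 of the other arrays.

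The pattern was more frequent for replicate 3 than for the others. The same rule turned to replicate 1 took 1 probe set, and turned to replicate 2 it took 0. Turned to higher signals it took 0 probe sets for replicate 1, 8 for replicate 2 and 28 for replicate 3, so the probe sets low on replicate 3 outnumbered those high on it. Applied within agp6 agp11 alone the rule took 146 probe sets, of which the 113 were 77.4%, and within wild type alone it took 438, of which they were 25.8%. The wild type replicate 3 was thus low for more probe sets, and the gap was larger in agp6 agp11 than in wild type for 16 of the 113 (14.2%), against 45.7% of the 4421, a description of values that the rule used. Replicate 1 and replicate 2, whose order the rule did not use, also differed. The signal on replicate 2 exceeded that on replicate 1 in both genotypes for 74 members (65.5%), against 29.2% of the 4421 probe sets, and replicate 1 was the higher one in both genotypes for 6 members and for 1867 of the 4421.

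**Figure D2:**
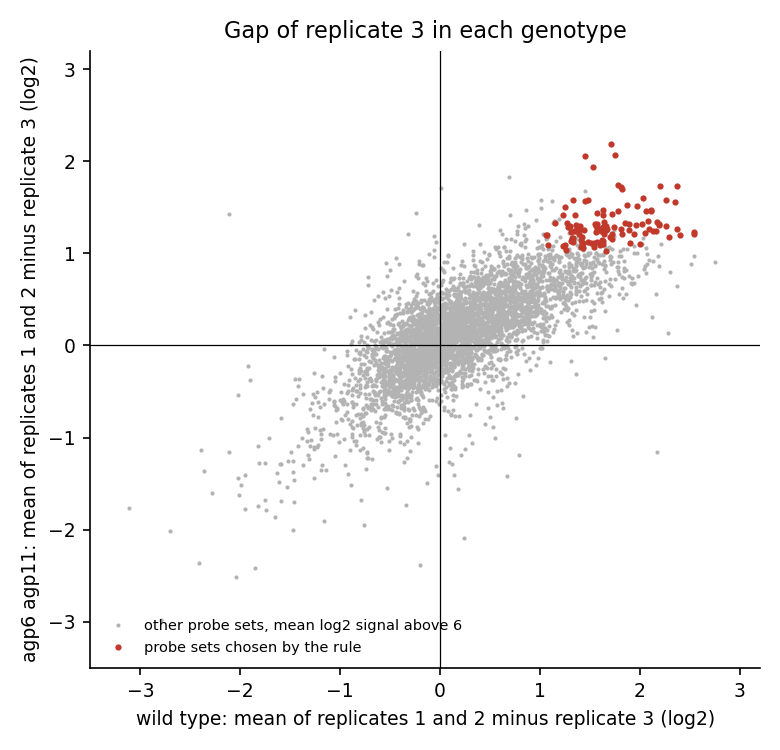
Gap of replicate 3 in agp6 agp11 (y axis) and in wild type (x axis), each as the mean log2 signal of replicates 1 and 2 minus that of replicate 3, for the 4421 probe sets with a mean log2 signal above 6. Each point is a probe set; the 113 chosen ones lie at the upper right by construction, with gaps of 1.03 to 2.19 in agp6 agp11 and 1.06 to 2.54 in wild type, and join the cloud of the others without a break.

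The members had no sharp edge. Just inside the rule, At5g01710 had signals of 745.4, 557.6 and 277.9 in agp6 agp11, against 483.4, 591.1 and 170.8 in wild type, and the smallest of its gaps to a single replicate was 1.0045. Just outside, At4g24630 had signals of 211.6, 240.8 and 105.9 in agp6 agp11, against 291.4, 315.7 and 105.3 in wild type, and its smallest gap was 0.999. The probe sets 251225_at (smallest gap 1.0009) and QQS (1.0088) lay inside in the same way, and At2g46900 (0.9939) and At1g05960 (0.9927) lay outside. A member near the edge therefore resembles many probe sets that were not taken.

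Most members were moderately to strongly expressed over the 6 arrays, but some replicate 3 signals were near the floor. In wild type replicate 3, At3g62480 had 28.1 and At3g24120 had 23.4, where the median signal of that array was 23.3. Both genes are taken up with the genotype comparison. Their mean log2 signal had a median of 8.64 (6.06 to 11.74), against 7.44 for the 4421. They made up 0.837% of probe sets with a mean between 6 and 7 and 2.19% between 7 and 8. Between 8 and 12 their share was 4.45% to 5.28% in each step of 1, and above 12 it was 0 of 120 probe sets. The very brightest transcripts of the tubes were therefore not among them.

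Of the 63 named members, 41 could be placed in 8 groups by what their products are known or predicted to do. The groups were drawn up with the members in view, so their sizes carry no test, and the roles are background knowledge rather than results. Cell wall and glycan genes formed the largest group, with 9 members. Their median gap, 1.74 (range 1.41 to 2.05), was the largest of the 8 groups, against 1.45 over all members. The 2 stress associated genes came next, at 1.68 (1.58 to 1.78). The rule used these gaps and the unnamed members could not be placed, so this order is a description only.

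3 of the wall genes act on pectin, the gel that forms most of the wall at the tube tip. The pectin methylesterase gene At4g33230, whose product removes methyl groups so that pectin can be crosslinked by calcium or degraded, had signals of 611.0, 566.9 and 177.0 in agp6 agp11, against 373.5, 705.8 and 98.9 in wild type. Its mean gap of 2.05 was the largest among named members. A second pectin methylesterase gene, At3g06830, had 429.4, 542.1 and 202.7 in agp6 agp11, against 316.5, 486.9 and 105.9 in wild type. The replicate 3 arrays were the lowest for both genes and the wild type replicate 3 was the lowest of all. AT59 (At1g14420), which encodes a pectate lyase-like protein of pollen, an enzyme type that cuts demethylated pectin, was the brightest named member, with 5653, 5972 and 2515 in agp6 agp11, against 4370, 5271 and 824.8 in wild type. Its gap in wild type, 2.54 or 5.82-fold, was more than that in agp6 agp11, 1.21 or 2.31-fold.

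The other wall genes concern xyloglucan, callose-type glucans and protein-bound or soluble glycans. CSLC12 (At4g07960) belongs to the cellulose synthase-like C family, which makes the glucan backbone of xyloglucan, and had signals of 611.7, 611.9 and 184.9 in agp6 agp11, against 578.8, 795.0 and 147.5 in wild type. The signal of At1g06890, a transporter that carries UDP-xylose, a building block of xyloglucan and xylan, into the Golgi, was 655.0, 853.2 and 258.8 in agp6 agp11, against 484.1, 870.4 and 177.1 in wild type. Both were highest on replicate 2 of wild type and lowest on replicate 3 of wild type. The predicted beta-1,3-glucanase genes of glycosyl hydrolase family 17, a family whose substrate type includes callose, were At3g55430, with 3007, 3451 and 1419 in agp6 agp11, against 2727, 2808 and 566.3 in wild type, and At5g20390, with 899.4, 1087 and 325.1 in agp6 agp11, against 3312, 3369 and 820.0 in wild type. At5g20390 was lower in agp6 agp11 on every array pair, which is taken up with the genotype comparison. The predicted O-fucosyltransferase gene At1g11990 (mean gap 1.51) and the N-acetylglucosaminyltransferase family gene At3g01620 (1.41) completed the group.

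**Figure D3:**
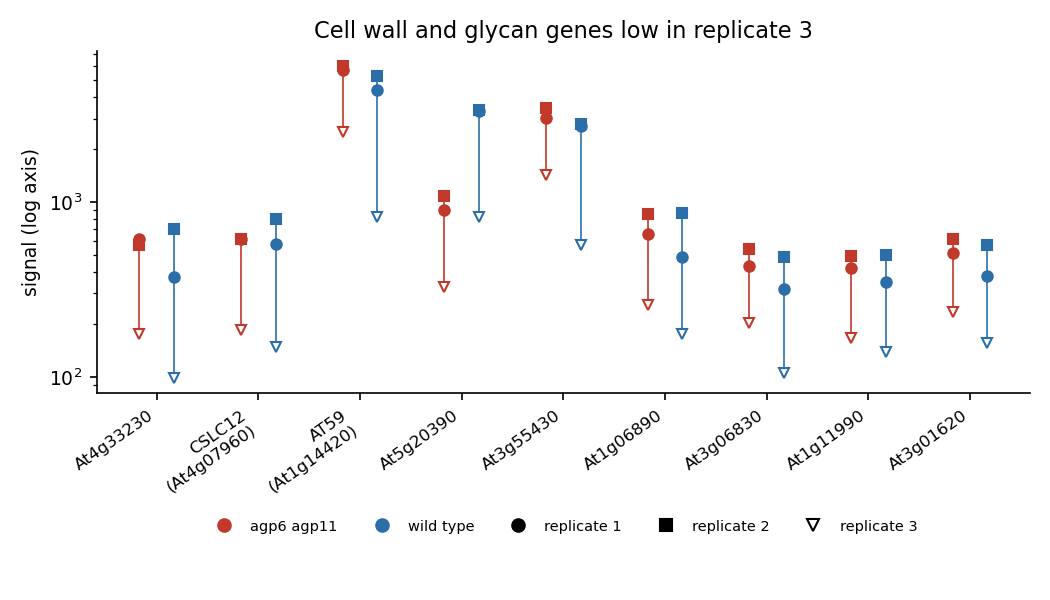
Signal (y axis, log scale) of the 9 cell wall and glycan genes (x axis, ordered by mean gap) on the 3 agp6 agp11 arrays, left, and the 3 wild type arrays, right, of each gene. Circles, squares and open triangles are replicates 1, 2 and 3, and the line joins the lowest and highest value; the triangle is the lowest in all 9 genes in both genotypes, as the rule requires, and At5g20390 is the gene whose genotypes lie furthest apart.

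Genes of metabolism and organelles numbered 7 (gaps 1.29 to 1.76). PPDK (At4g15530), pyruvate, phosphate dikinase, which interconverts pyruvate and phosphoenolpyruvate, had signals of 875.9, 966.0 and 367.8 in agp6 agp11, against 824.5, 1263 and 222.7 in wild type. SUFE2 (At1g67810), an activator of sulfur release for iron-sulfur cluster assembly, had 877.5, 1014 and 429.3 in agp6 agp11, against 696.1, 1070 and 278.6 in wild type. Both genes kept the order of replicate 2 above replicate 1 above replicate 3 in both genotypes. The S-adenosylmethionine decarboxylase gene At5g15950, a step of polyamine synthesis, was highest on replicate 1 in agp6 agp11, with 1382, 1032 and 505.4 in agp6 agp11, against 887.3, 1039 and 379.5 in wild type. The group also held At5g51970, a sorbitol dehydrogenase (1.64), At5g05990, a protein of the mitochondrial glycoprotein family (1.71), PSD2 (At5g57190), a phosphatidylserine decarboxylase that makes phosphatidylethanolamine (1.48), and QQS (At3g30720), an orphan gene known for its effect on starch content in leaves (1.37).

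Transport and membrane genes numbered 6 (1.14 to 1.74). The gene with the largest gap here was At4g00350, a MATE family efflux carrier, at 91.3, 183.5 and 33.8 in agp6 agp11, against 114.3, 156.4 and 46.2 in wild type. The others were At5g17850, a cation and calcium exchanger (1.38), At5g19760, the mitochondrial carrier of dicarboxylates and tricarboxylates (1.35), At1g26130, a P4-type ATPase of the kind that flips phospholipids (1.33), At5g56160, a Sec14-like lipid transfer protein (1.28), and At1g03370, a protein with C2 and GRAM domains (1.14). The mean signals of the group were low to moderate, from 75.1 to 265.3. The replicate 3 signals of At4g00350 and At1g03370 (37.4 in agp6 agp11 and 46.3 in wild type) were not far above the median signals of those arrays, 24.5 and 23.3.

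Kinases numbered 5 (1.16 to 1.76). At4g18950, related to integrin-linked kinases, had signals of 372.6, 448.2 and 121.8 in agp6 agp11, against 263.8, 306.9 and 82.8 in wild type, a gap of nearly the same size in agp6 agp11 (1.75) and wild type (1.78). The CDC2-related kinase gene cdc2cAt (At5g39420) was the brightest of the group, with 1016, 1085 and 500.2 in agp6 agp11, against 786.2, 1105 and 349.7 in wild type. Its gap was 1.07 in agp6 agp11 and 1.41 in wild type. The Raf-like kinase gene At1g04700 (1.16) and the kinase genes At4g10010 (1.46) and At1g16760 (1.38) completed it.

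Cytoskeletal motors and their partners numbered 3. They were the kinesin genes At3g51150 (1.40) and At4g24170 (1.28), whose products move along microtubules, and At3g11850 (1.49), of the myosin-binding family that links myosins to their cargo. The signals of At4g24170 were 673.6, 792.0 and 299.7 in agp6 agp11, against 610.7, 619.9 and 252.7 in wild type, a gap of 1.28 in each genotype.

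In protein turnover there were 3 members, At3g09760 (1.77) and At1g23030 (1.27), predicted ubiquitin ligases of the RING and U-box types, and MMP (At1g70170), a matrix metalloproteinase (1.26). At3g09760 had signals of 217.2, 269.2 and 73.3 in agp6 agp11, against 224.2, 302.5 and 74.3 in wild type, which shows almost equal levels of the genotypes at each replicate number. The 6 genes of gene expression had gaps of 1.17 to 1.59. They were At3g24120, a MYB-type factor related to the phosphate starvation regulator PHR1 (1.59), the initiation factor-related genes At1g11480 (1.46) and At1g72340 (1.43), the C2H2 zinc finger gene At3g10470 (1.37), At2g40620, the transcription factor bZIP18 (1.25), and At1g80780, of the CAF1 family of mRNA deadenylases (1.17). The members linked with stress or metal exposure were At5g43830 (1.78), of the aluminium-induced family, and At3g02480 (1.58), of the late embryogenesis abundant family, whose members protect cells during drying.

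Among named members outside these groups were very bright ones. At2g33420 had signals of 4572, 5452 and 2025 in agp6 agp11, against 3975, 5145 and 1531 in wild type, and At1g04470 had 3752, 3888 and 1765 in agp6 agp11, against 3447, 3438 and 922.1 in wild type. Both encode proteins with a DUF810 domain, a family of unknown function, so a pair of relatives shared the pattern. At4g25150, of the acid phosphatase type (gap 1.68), At4g27350 and At2g21990 (1.08) were also among the 12 named members with the highest mean signal. At4g04980 (1.79), At1g33050 (1.76), At2g33320 (1.76) and the pseudogene At3g62480 (1.75) were among the 12 with the largest gaps.

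The named members lay on all 5 chromosomes, 19 on chromosome 1, 5 on chromosome 2, 15 on chromosome 3, 10 on chromosome 4 and 14 on chromosome 5. Those were 30.2, 7.94, 23.8, 15.9 and 22.2% of them, against 24.9, 14.1, 21.7, 14.0 and 24.0% of all named probe sets above the level.

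Genes known for other roles in the tube were looked up in 13 lists of 245 genes, of which 75 had a named probe set and 46 of these exceeded the level of 6. None of them was a member, but the 29 at or below the level could not be, and a share of 0 among 46 is near the 2.56% of all probe sets above the level. The pollen tube growth list, with 17 named genes, had signals above 40 on at least 1 array for all 17, which fits the tissue label. Its median gap was 0.35, with a range of -1.71 to 1.10, against 0.15 over the 4421 probe sets. Several of its receptor kinases and wall proteins were lower on replicate 3 without reaching the rule. EXPA4, an expansin that loosens cell walls, had 4812, 5290 and 2743 in agp6 agp11, against 7492, 6089 and 2715 in wild type, and ANX2, a receptor kinase that keeps the tube from bursting, had 3471, 3587 and 2666 in agp6 agp11, against 3134, 3329 and 1724 in wild type. The related receptor kinase genes At4g39110 (BUPS1; gap 0.76) and At2g21480 (BUPS2; 0.73), the leucine-rich repeat extensin gene At2g15880 (LRX10; 0.81) and the transcription factor gene MYB97 (0.75) were lower as well. Other genes of the list went the opposite way. STP10 (At3g19940), a hexose transporter of growing tubes, had 1049, 822.7 and 2967 in agp6 agp11, against 1220, 460.3 and 2524 in wild type, the highest signal being on replicate 3 in each genotype, and the actin gene ACT11 had a gap of -0.50.

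**Figure D4:**
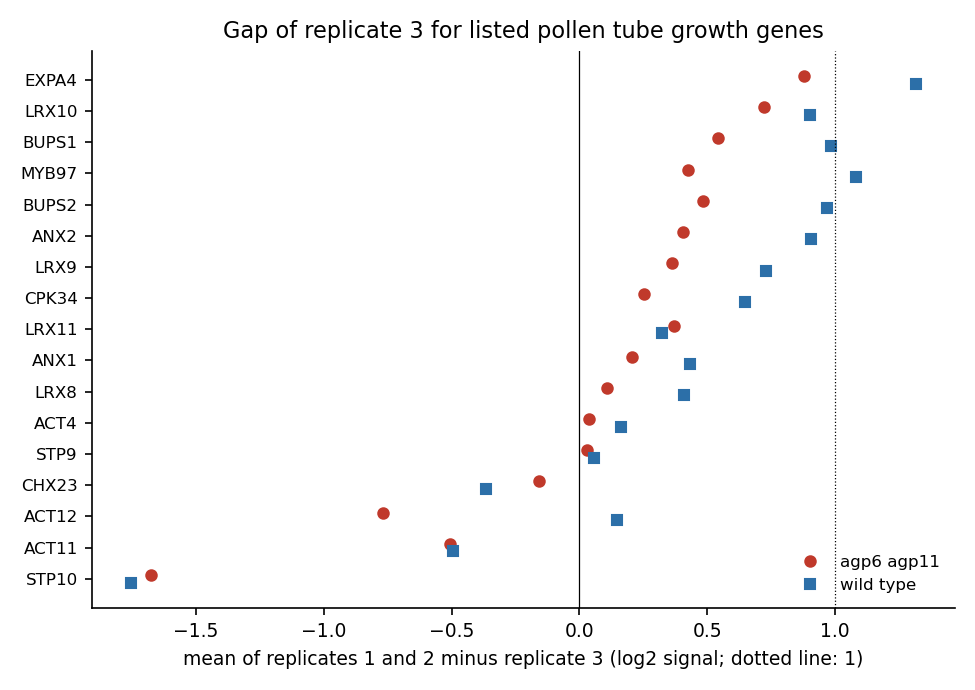
Gap of replicate 3 (x axis, mean log2 signal of replicates 1 and 2 minus replicate 3) for the 17 named genes of the pollen tube growth list (y axis), in agp6 agp11 (circles) and wild type (squares). Positive values mean a lower signal on replicate 3; EXPA4 has the largest mean gap, 1.10, STP10 the most negative, -1.71, and no gene exceeds the dotted line at 1 in both genotypes.

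The summed signal of the pollen tube growth list was 47264, 49813 and 40780 in agp6 agp11, against 44347, 41559 and 29194 in wild type, so it was lowest on replicate 3 in each. The sperm cell list, 6 of 13 genes named and all 6 above 40, summed to 27171, 19623 and 24852 in agp6 agp11, against 22538, 19361 and 24902 in wild type, and its median gap was -0.05. Of the photosynthesis list 2 of 18 genes were named and the highest signal was 47.9, and of the tapetum list 3 of 17 were named and the highest was 24.0. No gene of the floral organ identity list was named. The rapid stress, wound and defence list, with 10 of 31 genes named, summed to 689.7, 650.3 and 900.4 in agp6 agp11, against 891.2, 867.6 and 1375 in wild type, with a median gap of -0.22. Its defence gene PR5 had 26.8, 18.5 and 45.1 in agp6 agp11, against 151.4, 92.2 and 269.5 in wild type, the highest signal being on replicate 3 of each genotype. In agp6 agp11 the higher sum on replicate 3 came mostly from HSPRO2, with 233.7, 186.6 and 434.7, and 6 of the 10 genes were lower on replicate 3 than the mean of the others (median gap 0.06), while in wild type 9 of the 10 were higher on it (median gap -0.42). For the tube growth list, 13 of the 17 genes in agp6 agp11 and 14 in wild type were lower on replicate 3. The part of these genes in the pattern of the members was not tested. The cytosolic heat shock list (10 named) had a median gap of 0.04 averaged over the genotypes, which went opposite ways. In agp6 agp11 its median gap was -0.24, with 7 of the 10 genes higher on replicate 3. In wild type it was 0.33, with all 10 lower on replicate 3. The endoplasmic reticulum chaperone list (5 named, median gap -0.05) had 0.02 in agp6 agp11 and 0.21 in wild type. The lists for the circadian clock and cold (6 named, -0.09), darkness and sugar starvation (7 named, -0.13), low oxygen (4 named, -0.16) and dehydration and abscisic acid (3 named, -0.07) had medians slightly below 0, and the 2 named reference genes had a median of 0.23.

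The study compared agp6 agp11 with wild type, and the rule, which set replicates of a genotype against one another, did not use that difference. It does widen the spread within each genotype. The median standard deviation of log2 signals over the 3 arrays was 0.74 for members in agp6 agp11 and 0.95 in wild type, against 0.31 and 0.30 over the 4421 probe sets. With limma over all probe sets (Benjamini-Hochberg adjusted p under 0.05) 0 members passed in either direction, where 2.01% of all probe sets passed as higher and 1.67% as lower, and 4.43% and 2.44% of the 4421. The smallest adjusted p of a member was 0.114 with limma, and 6 members (5.31%) had an unadjusted p under 0.05, where 13.8% of all probe sets did. A 90% lower bound was also computed here from the spread between arrays, with the paper's limit of 1.3. By it 1 member was higher, At3g62480 (bound 1.75), and 1 lower, At5g20390 (bound 1.34). Of all probe sets 3.69% were higher and 2.77% lower, and of the 4421 it was 9.43% and 4.48%. The paper's bound instead weighted replicates by the standard errors of its signal model, so its calls can differ. Additional file 1, which the paper cites for its differentially expressed genes, has rows for 4 members, PSD2 among them, in the part held here. The share of all probe sets with such rows was not computed, so this count is not a result about the members. For 0 members did all 3 arrays of one genotype lie beyond all 3 of the other, where this held for 11.3% of all probe sets in the higher and 8.71% in the lower direction, and for 18.5% and 8.8% of the 4421. For a member this needs a genotype difference larger than the gap of replicate 3 that the rule required. The low count was therefore largely set by the rule and is not a result about the members.

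Same-numbered arrays of the genotypes departed from their means in the same direction, so the numbers were also fitted as pairs. Members were chosen for a fall on replicate 3 in both genotypes, which is variation that such a block takes out. The spread left in the blocked fit is thus shaped by the rule, and the members' p-values from it are not independent of the rule. With the replicate number as a block in limma, 12 members (10.6%) were higher in agp6 agp11 and 4 (3.54%) lower, where 5.03% of all probe sets were higher and 3.31% lower. Among the 4421 probe sets above the level, 14.3% were higher and 6.13% lower, so the members' shares were no higher than those of all probe sets above the level. For all 16 the difference had the same sign in the 3 pairs, and 10 of the 16 have a name. With both replicate 3 arrays left out, 5 members were higher and 3 lower without a block (where 2.73% of all probe sets were higher and 2.12% lower, and 5.97% and 3.46% of the 4421), and all 8 were among the 16. The median log2 difference over the members was 0.25, against 0.12 over the 4421 probe sets and 0.03 over all. Its sign rests on single arrays, since it was -0.29 without wild type replicate 3, -0.0041 without agp6 agp11 replicate 2 and 0.67 without agp6 agp11 replicate 3. By pair the medians were 0.22, 0.04 and 0.52 for replicates 1, 2 and 3, against 0.11, 0.07 and 0.19 over the 4421. The members' median was thus largest in the pair of replicate 3 arrays, and without that pair it was 0.14, against 0.09 over the 4421.

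Of the members that rose in the blocked fit, the pseudogene At3g62480 had signals of 335.4, 404.9 and 88.5 in agp6 agp11, against 61.1, 96.6 and 28.1 in wild type. Its log2 difference was 2.06 ± 0.19 (SE; adjusted p = 1.68e-04 with the block in limma and 0.114 without it). At5g19760, the mitochondrial dicarboxylate and tricarboxylate carrier, had 401.1, 558.6 and 191.9 in agp6 agp11, against 143.7, 228.0 and 68.6 in wild type. The difference was 1.42 ± 0.16 (SE; limma adjusted p = 5.21e-04 with the block, 0.207 without). PSD2, the phosphatidylserine decarboxylase, had 254.0, 340.1 and 119.6 in agp6 agp11, against 95.3, 159.1 and 38.9 in wild type, a difference of 1.38 ± 0.17 (SE; limma adjusted p = 9.61e-04 with the block, 0.261 without). In each of these genes every agp6 agp11 array exceeded the wild type array of the same number, while the genotypes overlapped when the numbers were set aside, since replicate 3 of agp6 agp11 lay below replicate 2 of wild type. At5g51970, sorbitol dehydrogenase (1.05), At5g43830 of the aluminium-induced family (1.04), At3g24120 of the PHR1-related factors (0.83), At5g65950, a subunit type of the TRAPP trafficking complex (0.81), and At1g11480 (0.67) were also higher in the blocked fit. Their limma adjusted p was between 0.00706 and 0.0475 with the block and between 0.462 and 0.641 without it. None of these passed with both replicate 3 arrays left out (limma adjusted p 0.0923 to 0.372). The unnamed 245796_at (1.12), 251225_at (1.01), 245127_at (0.90) and 254806_at (0.66) rose too.

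The genes that fell in the blocked fit were led by the family 17 glycosyl hydrolase gene At5g20390, whose values are given with the wall genes. It fell by 1.62 ± 0.17 on the log2 scale (SE; adjusted p = 3.04e-04 with the block in limma and 0.251 without it), which is 3.06-fold lower in agp6 agp11. At1g74010, a strictosidine synthase-like gene, had 269.2, 583.9 and 132.7 in agp6 agp11, against 1063, 1265 and 415.8 in wild type. It fell by 1.58 ± 0.19 on the log2 scale (SE; limma adjusted p = 8.34e-04 with the block, 0.222 without). Both were lower in agp6 agp11 in each of the 3 pairs, an agreement that the blocked test favours. They also passed with limma when the replicate 3 arrays were left out (adjusted p = 5.95e-04 and 0.0263). The unnamed 257315_at, with 1146, 1268 and 450.6 in agp6 agp11, against 2735, 2889 and 909.2 in wild type, fell by 1.15 on the log2 scale, and 259498_at fell by 0.82. The other wall genes, AT59, CSLC12 and the pectin methylesterase genes among them, did not pass the genotype test in either fit.

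**Figure D5:**
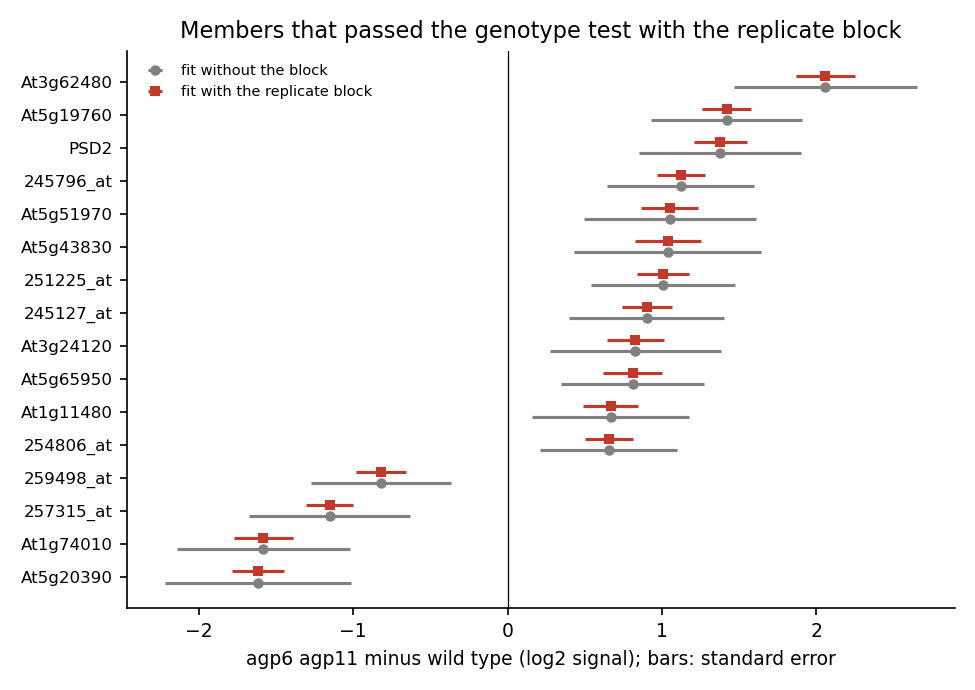
Log2 difference of agp6 agp11 minus wild type (x axis) for the 16 members (y axis) that passed limma's test with the replicate number as a block. Squares are the fit with the block and circles the fit without it, with standard errors as bars; the differences are the same, from -1.62 for At5g20390 to 2.06 for At3g62480, and the errors are smaller with the block.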

How the data were processed

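Pollen tube RNA of 3 agp6 agp11 and 3 wild type replicates was hybridized to Affymetrix ATH1 arrays. The authors took Present and Absent calls with Affymetrix Expression Console, scaled the 6 arrays to a common baseline with the invariant set procedure in dChip, and deposited linear model-based intensity values fitted to the perfect match probes. Scaling of all arrays to one baseline fixes the bulk of signals and can shift the size of a gap. Probe-level data were not analysed here. Of 22746 probe sets, 13487 have a single gene in the platform table and 503 several. With Additional file 1, 14300 were named. The names of members came from the platform table for 62 and from Additional file 1 for 1. Sequences were not used here.

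Signals below 1 were set to 1 and log2 values of the deposited signals were taken. The members and gene lists were chosen with earlier results of these data known. The genotype comparison used limma 3.58.1 (R 4.3.3; eBayes with an intensity trend, Benjamini-Hochberg over all probe sets, threshold 0.05), with the 6 arrays. The test was first run on simulated data. The 90% bound used Fieller's method (z = 1.645) and the spread between arrays, without probe-level error. Other steps used Python 3.11.15 with pandas 2.3.3, numpy 2.4.6 and matplotlib 3.10.9.

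The labels number the replicates. Deviations from the genotype mean correlated at 0.239, 0.347 and 0.379 between arrays of the same number (0.227, 0.332 and 0.352 without the members) and at 0.0711 or less between others, and all same-number values exceeded 0.1, so the block was fitted. Named members are the 12 with the largest mean gap, the 12 with the highest mean signal, those past the genotype test with or without the block, and others grouped by annotated function. The number of arrays limits the precision. P-values without the block measure the spread between these preparations. With the block they measure the spread of the differences between same-numbered arrays. Both fits also draw on the spread of other probe sets. Alternatives were quantile normalization, median centring, an offset of 32, other level and gap limits, exclusion of probe sets named _s_at, _x_at or _a_at, no trend, array weights, the block, omission of each array and of both replicate 3 arrays, and the bound.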

Additional observations from a re-analysis of the deposited data

How the results depend on the processing

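The number of probe sets low on replicate 3 of both genotypes depends on the scale and the limits. It was 113 as reported, 40 after quantile normalization, 62 with an offset of 32 before the log2, 228 with a gap above 0.8 and 38 with a gap above 1.2. The sets of 40, 62 and 38 all lay within the 113, and the 228 held all 113. With an array left out the number ran from 113 to 196, the 196 being without agp6 agp11 replicate 1, of which 112 were among the 113. Without a replicate 3 the rule has no value. Median centring gave 135, a mean above 5 gave 118, a mean above 7 gave 99 and exclusion of probe sets named _s_at, _x_at or _a_at gave 112.

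The genotype counts depend on how replicate 3 is treated. Against 0 members higher and 0 lower, the replicate block gave 12 higher and 4 lower. Array weights gave 4 higher and 3 lower. Leaving out both replicate 3 arrays gave 5 and 3, and adding the replicate block to that, a choice made after seeing the data, gave 12 and 5. The lower bound computed here from the spread between arrays gave 1 and 1. Leaving out single arrays gave 0 to 1 higher and 0 to 1 lower, the higher one without agp6 agp11 replicate 3 and the lower one without wild type replicate 3. The cause was not tested. Shares over all probe sets were given above for the block, for the bound, and for both replicate 3 arrays left out without the block. For the other alternatives they were not computed, so those counts cannot be compared with the whole array. Quantile normalization, median centring, the offset, the test of only probe sets with a mean log2 above 6 and the fit without the trend gave 0 in both directions. The median log2 difference of the members ran from -0.29 without wild type replicate 3 to 0.67 without agp6 agp11 replicate 3. It was -0.0041 without agp6 agp11 replicate 2. For the 10 named members that passed with the block, no alternative turned the direction, but the size moved. Without wild type replicate 3 the higher ones were smaller, down to 0.12 for At1g11480 and 0.21 for At3g24120. The lower ones were larger there, at -2.29 for At5g20390 and -2.07 for At1g74010. These genes were picked by the blocked fit of the same arrays, so the kept direction is a description. The small number of arrays and the width given by replicate 3 limit what the fit without the block could detect.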
